A study of Gallus gallus with 8 samples.

Results

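Red cells of the bird keep their nucleus and carry RNA in the circulation, so a skin sample that holds blood vessels also holds globin transcripts. The genes described here are 4 globins (HBB, HBE, HBG1 and HBZ) and 3 other genes linked with red cells (HEMGN, KLF1 and RHAG). They were taken by name, as the columns of the deposited expression table with exactly these names, and make up 7 of its 14642 genes. The table comes from RNA sequencing of the back skin of chicken embryos at 2 Hamburger & Hamilton (H&H) stages, before and during the elongation of feather buds. Skin from H&H 31 embryos (embryonic day 7) and from H&H 35 embryos (embryonic day 9) was separated into epithelium and mesenchyme in calcium- and magnesium-free saline. Each of the 4 groups (either tissue at either stage) had 2 biological replicates, labelled batch I and batch II. No treatment or genetic change is named for any group, and whether a library pools several embryos is not given in the sources used here.

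A globin chain binds haem and assembles with chains of the other type into haemoglobin, the oxygen carrier of red cells. In the chicken the first, primitive red cells make embryonic chains, among them epsilon and rho of the beta type and pi of the alpha type. The definitive red cells that replace them during the first part of incubation make other chains. KLF1 is known from mouse and human as an erythroid transcription factor that activates the adult beta-globin gene, HEMGN (hemogen) as a nuclear protein of erythroid cells, and RHAG as the Rh-associated glycoprotein of the red cell membrane.

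In the RefSeq gene names of assembly GRCg7b, 5 of the 7 names were matched and 2, HBB and KLF1, were not. There HBE is the epsilon gene, HBG1 is a synonym of the rho gene HBBR, and HBZ carries the synonym of the pi gene. Along the chromosome the beta-type genes stand in the order HBE, HBBA, HBE1, HBBR with no other protein-coding gene between them, and HBZ stands beside HBAD and HBA1. Of these neighbours 2 of 4 beta-type genes and 1 of 3 alpha-type genes were analysed here. Which beta chain the HBB column represents was not settled. Whether the KLF1 column is the erythroid factor or another KLF gene under that symbol was not settled either. Of 14 other globin names sought, HBA1, HBAD and HBBA among them, 0 were columns of the table. Sums over the 4 globins therefore leave out any globin under another name. Globin genes are close copies of each other, and how the authors' counting shared reads among them is not given, so every globin value carries that uncertainty.

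Values are RPKM, read numbers divided by the length of the transcript and by the mapped reads of the library, and can therefore be compared between genes. The libraries held 22050712 to 33620383 alignments. Epithelium and mesenchyme were distinct, since all 9 epithelium markers were lower and all 8 mesenchyme markers higher in mesenchyme at both stages. Of these, KRT14 and TACSTD1 (the table's name for EPCAM) were the most abundant for epithelium, and VIM and COL1A2 for mesenchyme. COL1A2 was high in epithelium too, with means of 449 RPKM at H&H 31 and 381 RPKM at H&H 35. In mesenchyme its means were 1099 and 817 RPKM.

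HBB had the highest level of the 7 genes in all 4 mesenchyme libraries, with means of 383 RPKM at H&H 31 and 394 RPKM at H&H 35. In mesenchyme it measured 250.0 RPKM (batch I) and 516 RPKM (batch II) at H&H 31, and 384 and 405 RPKM at H&H 35. In epithelium it measured 5.45 and 3.12 RPKM at H&H 31, and 8.11 and 10.1 RPKM at H&H 35. Its 2 libraries of H&H 31 mesenchyme enclosed both H&H 35 values, whereas the epithelium libraries of the stages did not overlap. With 2 libraries a group, groups that do not differ can often stand apart too. The share of all genes without overlap was not computed, so overlap is given here as description only. HBB ranked 161 and 89 among the 14642 genes in H&H 31 mesenchyme and 109 and 100 in H&H 35 mesenchyme.

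The embryonic chains showed another course. HBG1 (rho) measured 138 and 209 RPKM in H&H 31 mesenchyme and 20.8 and 23.1 RPKM in H&H 35 mesenchyme. In epithelium it measured 5.47 and 0.757 RPKM at H&H 31, against 0.639 and 0.437 RPKM at H&H 35. The stages did not overlap in either tissue, and at H&H 31 the epithelium library of batch I lay far above that of batch II.

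HBE (epsilon) measured 48.9 and 67.8 RPKM in H&H 31 mesenchyme and 11.7 and 12.4 RPKM in H&H 35 mesenchyme. Its epithelium values were 1.69 and 0.198 RPKM at H&H 31 and 0.0980 and 0.325 RPKM at H&H 35, so the stages overlapped in epithelium and stood apart in mesenchyme. HBZ (pi) measured 56.4 and 55.4 RPKM in H&H 31 mesenchyme and 4.89 and 4.80 RPKM in H&H 35 mesenchyme. In epithelium it fell from 1.99 and 0.387 RPKM to 0.0627 and 0.130 RPKM, with no overlap. Its mesenchyme replicates were closer to each other than those of any other globin.

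HEMGN and RHAG were low in every library. In mesenchyme HEMGN measured 0.630 and 0.857 RPKM at H&H 31 and 1.07 and 1.02 RPKM at H&H 35, and in epithelium 0.192 and 0.0523 RPKM, then 0.127 and 0.0521 RPKM. RHAG measured 0.915 and 1.59 RPKM at H&H 31 and 2.14 and 1.79 RPKM at H&H 35 in mesenchyme, against 0.0266 and 0.0217 RPKM, then 0.0616 and 0.130 RPKM in epithelium. Both lay higher in H&H 35 than in H&H 31 mesenchyme with no overlap, but neither passed the test given below. Both stayed below every globin of the same mesenchyme library.

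KLF1 had a different order of groups from the other 6 genes. In epithelium it measured 0.104 and 0.184 RPKM at H&H 31, and 7.37 and 6.10 RPKM at H&H 35. In mesenchyme it measured 0.426 and 1.08 RPKM at H&H 31, and 1.80 and 1.62 RPKM at H&H 35. The highest KLF1 levels were therefore in the epithelium of H&H 35. There each of the other 6 genes was at least 11.7-fold lower by mean than in the mesenchyme of that stage. For HEMGN, the lowest of these ratios, it was 8.25-fold without batch II of H&H 35 epithelium. No 2 of the 4 groups overlapped for KLF1.

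**Figure D1:**
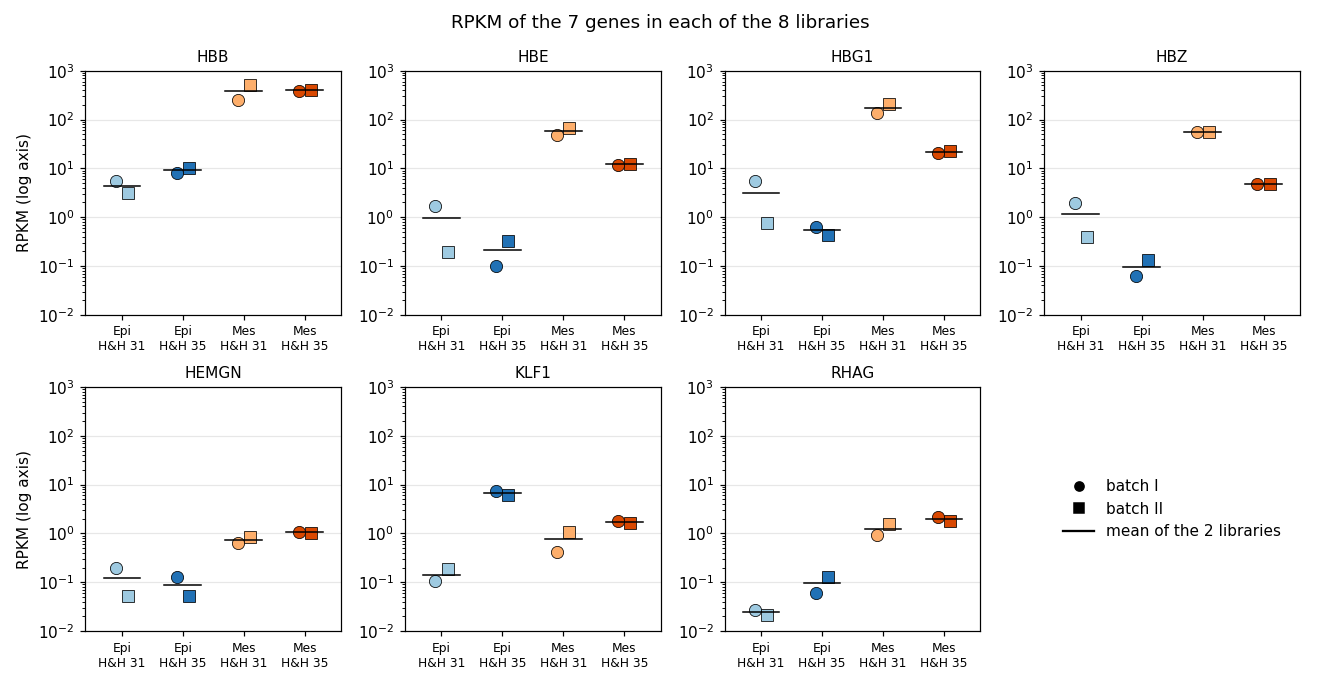
RPKM (log axis) of each of the 7 genes in the 8 libraries, with circles for batch I, squares for batch II and a line at the mean of the 2 libraries of a group (Epi, epithelium; Mes, mesenchyme). HBB sat between 250.0 and 516 RPKM in all mesenchyme libraries, HBZ dropped from 55.9 to 4.85 RPKM by mean, and KLF1 alone peaked in H&H 35 epithelium.

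The stage comparison asked which transcripts changed as feather buds began to elongate. In mesenchyme the 3 embryonic globins fell between H&H 31 and H&H 35, while HBB did not pass the test. HBZ fell the most, from 55.9 ± 0.729 to 4.85 ± 0.0656 RPKM (mean ± SD, n = 2), which is 11.5-fold lower. HBG1 went from 173 ± 49.9 to 22.0 ± 1.60 RPKM, 7.88-fold lower, and HBE from 58.4 ± 13.3 to 12.1 ± 0.533 RPKM, 4.84-fold lower. In this bulk tissue, fewer cells of a type and less RNA per cell cannot be told apart.

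Tests were made on log2(RPKM + 1) with limma across the 11155 genes that reached 1 RPKM in at least 2 libraries, with Benjamini-Hochberg adjustment and calls at an adjusted p under 0.05. The scale understates changes of genes below about 1 RPKM. HBZ changed by -3.28 (SE 0.28, limma adjusted p = 4.84e-05), HBG1 by -2.89 (SE 0.48, limma adjusted p = 0.00165) and HBE by -2.17 (SE 0.32, limma adjusted p = 0.000887). These calls held under all 18 alternatives tried, with every leave-one-out change at or below -1.93. HBB changed by 0.13 (95% interval -0.57 to 0.83, limma adjusted p = 0.767), and it changed by -0.39 (limma adjusted p = 0.285) without batch I of H&H 31 mesenchyme.

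By mean KLF1 was 2.27-fold higher in H&H 35 mesenchyme, or 1.58-fold without batch I and 4.01-fold without batch II of H&H 31 mesenchyme. Its log2 change of 0.65 (SE 0.18, limma adjusted p = 0.0199) was called. That call was lost without batch I of H&H 31 mesenchyme (0.38, limma adjusted p = 0.133), without batch I of H&H 35 mesenchyme (0.60, limma adjusted p = 0.0726) and with quantile normalization (0.49, limma adjusted p = 0.0771). RHAG, with 1.57-fold higher means, changed by 0.41 (95% interval 0.05 to 0.77, limma adjusted p = 0.0685) and was called without batch II of H&H 31 mesenchyme (0.63, limma adjusted p = 0.0217). HEMGN changed by 0.24 (95% interval -0.06 to 0.53, limma adjusted p = 0.181). In all, 3 of the 7 genes were lower and 1 was higher in H&H 35 mesenchyme, where 39.8% of all genes tested were called, 21.6% lower and 18.2% higher. The median change over all genes tested was -0.03.

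Between libraries of the same batch number the 3 embryonic globins were lower at H&H 35 in mesenchyme. The labels do not say that a number stands for the same batch at both stages, so such pairs share a number only. The level at H&H 35 was 0.0867 of that at H&H 31 for HBZ under both numbers. It was 0.151 and 0.111 for HBG1 and 0.239 and 0.184 for HBE, in batch I and batch II. HBB was 1.53 times its H&H 31 level in batch I and 0.785 times in batch II, so its direction differed between these pairs, as it did between left-out libraries (0.66 without batch II of H&H 31 mesenchyme).

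In epithelium KLF1 rose from 0.144 ± 0.0565 to 6.74 ± 0.902 RPKM between the stages (mean ± SD, n = 2). That is 46.8-fold by mean, or 36.6-fold to 64.8-fold with 1 epithelium library left out. On the log2 scale this was 2.75 (SE 0.18, limma adjusted p = 1.08e-05), and the call held under all 18 alternatives. HBB was 2.13-fold higher (0.97, SE 0.31, limma adjusted p = 0.0387), and HBZ 12.3-fold lower by mean, or 4.02-fold without batch I, 20.7-fold without batch II of H&H 31 and 18.9-fold without batch II of H&H 35 epithelium (-0.89, SE 0.28, limma adjusted p = 0.0379). With these, 2 genes were higher and 1 was lower, where 34.4% of all genes tested were called, 18.6% higher and 15.9% lower.

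The HBB and HBZ calls in epithelium were close to the threshold. HBB lost its call when batch II of H&H 31 epithelium, either H&H 35 epithelium library or either H&H 35 mesenchyme library was left out, with changes of 0.64 to 1.11 and limma adjusted p of 0.0504 to 0.229. It also lost it with no filter on low values (limma adjusted p = 0.104), with libraries scaled to an equal sum (0.0621) and without a variance trend (0.0529). HBZ lost its call without batch I of H&H 31 epithelium (-0.34, limma adjusted p = 0.119), and without either H&H 31 mesenchyme or either H&H 35 epithelium library (-0.85 to -0.94, limma adjusted p of 0.0686 to 0.146). The HBZ call was also lost with no filter (limma adjusted p = 0.0985) and when only the libraries compared were fitted (0.110). HBG1 changed by -1.14 (limma adjusted p = 0.102) and HBE by -0.57 (limma adjusted p = 0.207) in epithelium. Both were called once batch II of H&H 31 epithelium was left out, at -2.08 (limma adjusted p = 0.000586) for HBG1 and -1.16 (limma adjusted p = 0.00637) for HBE. Without batch I of that group, HBE changed by 0.0101.

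HEMGN (-0.04, limma adjusted p = 0.852) and RHAG (0.10, limma adjusted p = 0.690) did not pass the test in epithelium. RHAG lay between 0.0217 and 0.0266 RPKM at H&H 31 and between 0.0616 and 0.130 RPKM at H&H 35, with no overlap.

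**Figure D2:**
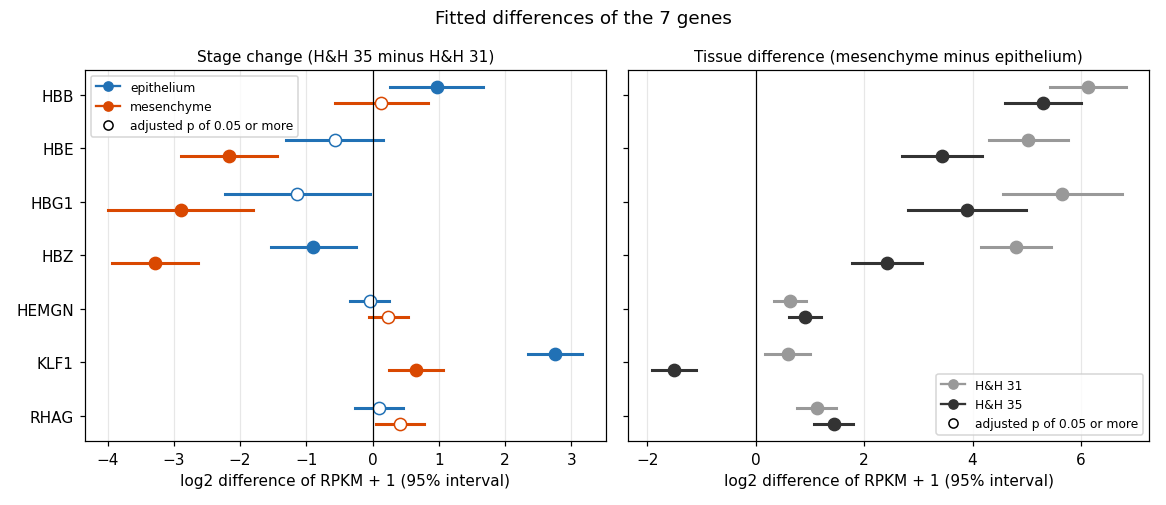
Fitted log2 differences of RPKM + 1 with 95% intervals for the 7 genes, as stage change in each tissue (left) and as mesenchyme minus epithelium at each stage (right). Filled points had a limma adjusted p under 0.05. In mesenchyme HBE, HBG1 and HBZ lay between -2.17 and -3.28 while HBB lay at 0.13, and KLF1 was on the positive side at H&H 31 (0.59) and on the negative side at H&H 35 (-1.51).

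Mesenchyme and epithelium were compared at each stage to learn which compartment carried the red cell transcripts. At H&H 31 all 7 genes were higher in mesenchyme, by 89.5-fold for HBB, 62.0-fold for HBE, 55.6-fold for HBG1, 47.1-fold for HBZ, 51.9-fold for RHAG, 6.08-fold for HEMGN and 5.23-fold for KLF1 (ratios of group means). These ratios turned on single libraries. Without batch I of H&H 31 epithelium they were 295-fold for HBE, 229-fold for HBG1, 145-fold for HBZ and 14.2-fold for HEMGN, and without batch II of that group 34.6-fold, 31.6-fold, 28.1-fold and 3.87-fold. Without batch II of H&H 31 mesenchyme HBB was 58.4-fold and KLF1 2.96-fold higher, so the order of the ratios is not fixed by these libraries. All 7 were called, where 57.4% of all genes tested were called, 29.7% higher and 27.7% lower in mesenchyme. The log2 differences were 6.13 for HBB, 5.66 for HBG1, 5.03 for HBE, 4.80 for HBZ, 1.12 for RHAG and 0.64 for HEMGN, with limma adjusted p of at most 0.00247. KLF1 differed by 0.59 (limma adjusted p = 0.0204).

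The KLF1 call at H&H 31 was lost without either H&H 31 epithelium library (0.54 without batch I and 0.64 without batch II, limma adjusted p of 0.0938 and 0.0543), without batch II of H&H 31 mesenchyme (0.32, limma adjusted p = 0.155) and with quantile normalization (0.42, limma adjusted p = 0.0974). All 7 genes passed the filter on low values, RHAG and HEMGN with both libraries of H&H 35 mesenchyme as their only full group, KLF1 with the H&H 35 groups, and HBE, HBG1 and HBZ with the mesenchyme groups. A gene let in by the group where it is high is more likely to differ there, so its call is not independent of the filter. With no filter all 7 were called at both stages, as were 6920 of 14642 genes at H&H 31 and 8025 at H&H 35.

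At H&H 35 the other 6 genes were higher in mesenchyme and KLF1 was lower. HBE was 57.1-fold, HBZ 50.4-fold, HBB 43.2-fold, HBG1 40.8-fold, RHAG 20.6-fold and HEMGN 11.7-fold higher, with log2 differences of 3.44, 2.42, 5.29, 3.90, 1.43 and 0.91 and limma adjusted p of at most 0.000215. Without batch II of H&H 35 epithelium the ratio was 123-fold for HBE, 77.3-fold for HBZ, 31.9-fold for RHAG and 8.25-fold for HEMGN. Without batch I of that group it was 37.2-fold for HBE, 37.4-fold for HBZ, 15.2-fold for RHAG and 20.2-fold for HEMGN. KLF1 was 3.94-fold lower in mesenchyme (-1.51, SE 0.18, limma adjusted p = 7.44e-05). Of all genes tested, 66.2% were called at this stage, 29.1% higher and 37.1% lower in mesenchyme. The stage and tissue comparisons share their libraries, so they are not independent of each other.

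Epithelium libraries held a small and uneven level of the globins. Set against the mesenchyme library of the same stage and batch number, the 4 globins were at 2.18% to 3.97% in batch I and at 0.292% to 0.698% in batch II of H&H 31. At H&H 35 they were at 0.838% to 3.07% in batch I and 1.89% to 2.70% in batch II. The 13 endothelial markers, which cells of the vessel wall express, had medians of 1.79% and 0.567% at H&H 31 and 0.531% and 0.636% at H&H 35. The 8 mesenchyme markers had medians of 3.94% and 2.81% at H&H 31 and 0.852% and 1.01% at H&H 35. Single mesenchyme markers ran from 0.123% to 39.2% in batch I and from 0.0859% to 42.9% in batch II of H&H 31. At H&H 35 they ran from 0.184% to 43.9% and from 0.373% to 49.6%, with COL1A2 the highest each time. Single endothelial markers ran from 0% to 12.2% in batch II of H&H 31, with a higher maximum in batch I. The medians therefore do not give a level shared by the markers. The globins and the endothelial markers were both higher in batch I than in batch II of H&H 31 epithelium, by 3.27-fold for the summed globins and 1.91-fold for the summed markers, and the part of mesenchyme or blood left on the epithelium in these values was not tested.

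**Figure D3:**
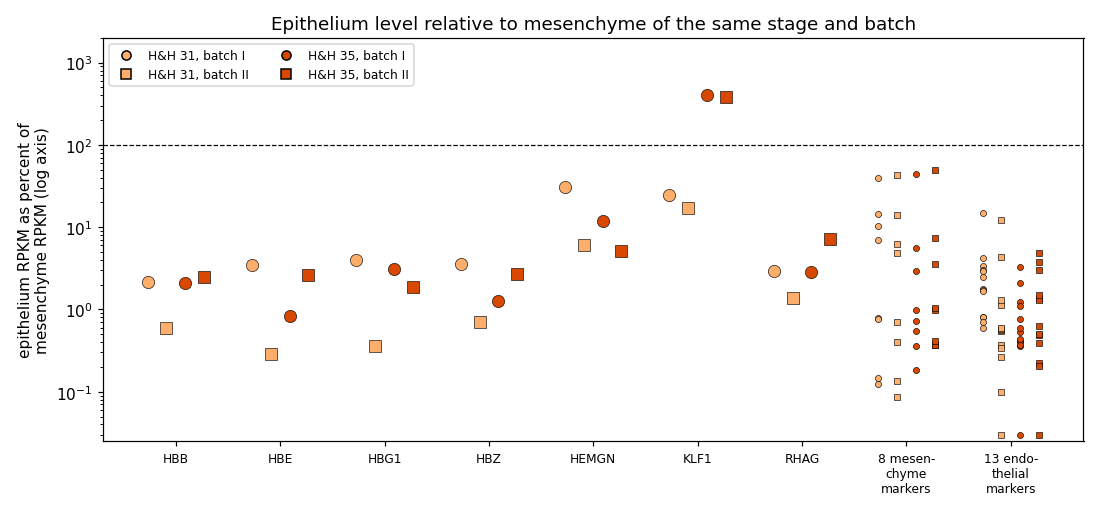
Epithelium RPKM as a percent of mesenchyme RPKM of the same stage and batch (log axis) for the 7 genes and for each of 8 mesenchyme and 13 endothelial markers (small symbols, with markers at 0 drawn at the bottom edge). The dashed line marks equal levels. The globins lay between 0.292% and 3.97%, and KLF1 crossed the line, from 24.4% and 17.0% at H&H 31 to 409% and 377% at H&H 35.

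In mesenchyme most vessel markers rose while the 3 embryonic globins fell and HBB did not pass the test. The summed level of the 13 endothelial markers was 124 to 130 RPKM in H&H 31 mesenchyme and 272 to 299 RPKM in H&H 35 mesenchyme. Of the 13, 10 were higher and 3 not called at H&H 35 by limma (median change 0.85), where 18.2% of all genes tested were higher. Under some of the alternatives fewer were called higher, none gave more, and a lower call appeared in some. Of the 3 not called, 1 was lower at an unadjusted limma p under 0.05. CDH5 and SOX18 were the most abundant, and every marker was at least 1 RPKM in all mesenchyme libraries. The summed 4 globins were 493 and 848 RPKM at H&H 31 and 421 and 446 RPKM at H&H 35. These 4 globins therefore made up 0.146% and 0.244% of the summed RPKM of H&H 31 mesenchyme, and 0.123% and 0.139% at H&H 35. Globins under other names are not in these sums. All endothelial markers together reached 1.27 to 2.75 RPKM in the epithelium libraries.

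Ratios between genes of the same library are unaffected by a factor common to their levels. HBG1 was 55.2% and 40.4% of HBB in H&H 31 mesenchyme, and 5.43% and 5.70% in H&H 35 mesenchyme. In epithelium it was 100.5% and 24.3% of HBB at H&H 31, and 7.88% and 4.31% at H&H 35. HBE was 19.6% and 13.1% of HBB in H&H 31 mesenchyme and 3.05% and 3.07% in H&H 35 mesenchyme, with 30.9% and 6.34% against 1.21% and 3.20% in epithelium. All 4 libraries of H&H 31 had a higher share of each embryonic chain than any library of H&H 35.

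HBZ was 22.6% and 10.7% of HBB in H&H 31 mesenchyme and 1.27% and 1.18% in H&H 35 mesenchyme. In epithelium the shares were 36.5% and 12.4% at H&H 31, and 0.773% and 1.28% at H&H 35. At H&H 31 the library of batch I had the higher share in both tissues for all 3 chains, whereas the H&H 35 mesenchyme libraries agreed within 1 percentage point. Over the sum of the 4 globins, HBE, HBG1 and HBZ together took 62.7% and 30.1% at H&H 31 and 8.98% and 8.08% at H&H 35 in epithelium, and 49.3% and 39.1%, then 8.88% and 9.06% in mesenchyme.

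The stage change of the ratio to HBB was tested on log2(RPKM + 1), with the stage labels exchanged within each tissue. It was -1.92 for HBE (-1.54 in epithelium, -2.30 in mesenchyme), -2.57 for HBG1 (-2.10 and -3.03) and -2.64 for HBZ (-1.86 and -3.42). Each exact two-sided permutation test gave p = 0.0556, the smallest that the 36 arrangements allow, and p = 0.0556 after adjustment over the 3 ratios. An exact sign-flip test over the 4 stage pairs of same tissue and batch number gave p = 0.125 for each ratio, also its smallest. Both tests treat the tissues as independent, which libraries of the same stage and batch number may not be. The design therefore cannot reach 0.05 for these ratios. The pooled SD between replicates was 0.28, 0.49 and 0.42. The smaller changes in epithelium depended on the added constant. Without it, HBE changed by -2.83 in epithelium and -2.39 in mesenchyme, HBZ by -4.42 and -3.66, and HBG1 by -3.08 in both.

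**Figure D4:**
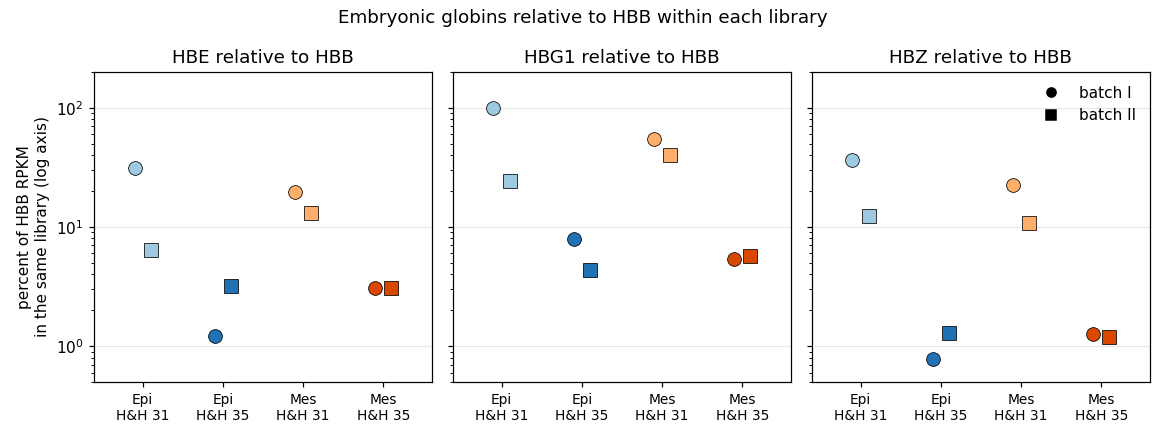
HBE, HBG1 and HBZ as a percent of HBB RPKM in the same library (log axis), with circles for batch I and squares for batch II. Every H&H 31 library stood above every H&H 35 library, at 6.34% or more against 3.20% or less for HBE, 24.3% or more against 7.88% or less for HBG1, and 10.7% or more against 1.28% or less for HBZ.

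In mesenchyme the embryonic chains did not keep the same proportion to each other. HBG1 was 2.82 and 3.08 times HBE in H&H 31 mesenchyme, and 1.78 and 1.86 times in H&H 35 mesenchyme. HBE was 0.867 and 1.22 times HBZ at H&H 31 and 2.39 and 2.59 times at H&H 35. Neither ratio overlapped between the stages in mesenchyme. In epithelium the ratio of HBG1 to HBE did overlap, at 3.25 and 3.83, then 6.53 and 1.35, and that of HBE to HBZ was 0.848 and 0.511, then 1.56 and 2.50. These differences were not tested.

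Replicates of H&H 31 mesenchyme were unequal in red cell transcripts. Batch II over batch I was 2.07 for HBB, 1.74 for RHAG, 1.51 for HBG1, 1.39 for HBE, 1.36 for HEMGN and 2.53 for KLF1, but 0.982 for HBZ and 1.04 for the summed endothelial markers. In H&H 35 mesenchyme the same ratios lay between 0.837 (RHAG) and 1.11 (HBG1). The replicates of that group were thus within a narrow range, while those of H&H 31 differed up to 2.53-fold.

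The difference between the stage change of mesenchyme and that of epithelium was tested as an interaction. It was -2.39 for HBZ (SE 0.40, limma adjusted p = 0.00164), -2.10 for KLF1 (SE 0.26, limma adjusted p = 0.000297) and -1.59 for HBE (SE 0.45, limma adjusted p = 0.0208), and 42.4% of all genes tested were called (23.0% lower, 19.4% higher). HBG1 (-1.76, limma adjusted p = 0.0660), HBB (-0.83, limma adjusted p = 0.157), HEMGN (0.28, limma adjusted p = 0.256) and RHAG (0.31, limma adjusted p = 0.294) were not called.

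For KLF1 the interaction held under all 18 alternatives. For the globins it turned on the added constant, since their epithelium values lay near or below 1 RPKM. With 0.1 in place of 1 it was -1.12 for HBZ (limma adjusted p = 0.277) and -0.92 for HBE (limma adjusted p = 0.496). HBE was not called with 0.5 either (-1.39, limma adjusted p = 0.102), nor with no filter (limma adjusted p = 0.0632). HBE also lost its call without batch II of H&H 31 mesenchyme (-1.36, limma adjusted p = 0.0868), batch II of H&H 35 epithelium (-1.46, limma adjusted p = 0.0617) or batch I of H&H 35 mesenchyme (-1.55, limma adjusted p = 0.0510). HBG1 was called without batch I of H&H 31 epithelium (-2.70, limma adjusted p = 0.000476) and HBB without batch I of H&H 31 mesenchyme (-1.36, limma adjusted p = 0.0162).

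For 3 of the 7 genes the values could be read as whole reads, within 0.06 of a read for numbers below 300. Larger numbers were not checked. The smallest whole numbers for HEMGN in epithelium were 3 and 1 reads at each stage, and in mesenchyme 10 and 17 reads at H&H 31 and 25 and 24 at H&H 35. RHAG had 2 and 2, then 7 and 12 reads in epithelium, and 70 and 152, then 240 and 202 in mesenchyme. HBZ had 63 and 15, then 3 and 5 reads in epithelium, the last at 5.054 before rounding. In mesenchyme it had 1818 and 2229 reads, both unchecked, then 231 and 228. The search stopped at the first numbers that fitted, so larger numbers in the same proportion remain possible. On these smallest numbers, the epithelium levels of HEMGN and RHAG and the H&H 35 epithelium level of HBZ rested on 12 reads or fewer. No such reading was found for HBB, HBE, HBG1 and KLF1.

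Over the 8 libraries, which share stage and tissue structure, the genes varied together unequally. Pearson's r of log2(RPKM + 1) was 0.99 between HBE and HBG1, 0.98 between HEMGN and RHAG, and 0.97 between HBB and RHAG. KLF1 had r of -0.09 with HBB, -0.09 with RHAG and -0.44 with HBZ. KLF1 was highest in H&H 35 epithelium (7.37 and 6.10 RPKM), and these r values include that group. Within mesenchyme, KLF1 measured 0.426 and 1.08 RPKM at H&H 31, and 1.80 and 1.62 RPKM at H&H 35. Like RHAG and HEMGN, it was lowest in batch I of H&H 31, then in batch II, and higher in both H&H 35 libraries. The H&H 35 libraries were not ranked by HEMGN, at 25 and 24 reads on its smallest whole numbers. The globins did not have this order.

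Among 8612 genes that reached 5 RPKM in some library, those most like HBB were GGA.4981, C9orf89 and FNBP1 (r of 0.997 for each). HBE was most like GLUD1, NKAIN3 and ARHGAP24 (0.995, 0.992 and 0.992), HBG1 like GLUD1, RASSF3 and GSDMA (0.994, 0.987 and 0.985) and HBZ like AP3M1 and SIAT7E (0.991 and 0.989). HEMGN was most like PANK4, PRKAR1B and OSMR (0.992, 0.992 and 0.991). RHAG was most like H1F0, IGFBP4 and DCLK1 (0.993, 0.993 and 0.992), and KLF1 like C1ORF174, PALMD and TRIB1 (0.987, 0.987 and 0.984). With 4 groups, likeness of this kind follows from the group means and describes these 8 libraries only.

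A wider set of red cell genes was read beside the 7, with 42 in the table and 37 tested. Some were high in mesenchyme and showed no called stage change. H1F0, to which RefSeq gives the synonym H5, the linker histone of bird red cells, measured 6.93 and 11.8 RPKM in H&H 31 mesenchyme, 17.2 and 11.2 RPKM in H&H 35 mesenchyme, and 0.344 to 0.838 RPKM in epithelium. Its stage change in mesenchyme was 0.57 (limma adjusted p = 0.105). TSPO2, a membrane protein of erythroid cells, measured 3.29 and 5.75 RPKM, then 8.31 and 4.89 RPKM (0.46, limma adjusted p = 0.179). SCL, the table's name for the blood and vessel transcription factor TAL1, measured 4.42 and 3.89 RPKM, then 5.47 and 3.90 RPKM, and was listed at 0 in both H&H 31 epithelium libraries. EPB42, of the red cell membrane skeleton, changed by 0.24 (limma adjusted p = 0.269).

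The share of all genes called between stages was 39.8% in mesenchyme (18.2% higher, 21.6% lower) and 34.4% in epithelium (18.6% higher, 15.9% lower), and the counts of the lists are to be read against it. The membrane and skeleton list had 10 genes tested. In mesenchyme 3 were higher and 1 lower at H&H 35 (median 0.27), a share near that of all genes, namely AQP1, a water channel that vessel cells also make (0.62), RHD (0.57) and the glucose carrier SLC2A1 (0.39), against glycophorin C, GYPC (-1.35, from 35.8 to 13.7 RPKM by mean). Without batch I of H&H 35 mesenchyme 1 was higher. In epithelium 2 were higher, the nucleoside carrier SLC29A1 (0.93) and the skeleton protein EPB41 (0.57), and 3 lower, TMOD1 (-1.65), GYPC (-0.65) and RHD (-0.55). There 1 of the 10 was lower without batch II of H&H 31 or batch I of H&H 35 epithelium. Between the tissues, AQP1 (5.12 and 5.78 at the stages in order), GYPC (2.14 and 1.44) and TSPO2 (2.07 and 2.32) were higher in mesenchyme at both stages, as was EPB42 (1.04 and 1.37), and TMOD1 was lower at H&H 31 (-1.59). The interaction was called for TMOD1 (1.49), RHD (1.11), EPB41 (-0.84) and AQP1 (0.66) among others.

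Of 8 erythroid transcription factors tested, 3 were higher in H&H 35 mesenchyme (18.2% of all genes were higher and 21.6% lower), GATA2 (0.60), BCL11A (0.58) and LMO2 (0.56), and MYB was lower (-0.60). None was higher without either H&H 31 mesenchyme library, and 1 was without batch I of H&H 35 mesenchyme. None was lower without batch II of H&H 31 or batch I of H&H 35 mesenchyme. In epithelium MYB (1.78), KLF3 (0.58) and LDB1 (0.54) were higher and BCL11A was lower (-0.60), a call lost without either H&H 31 epithelium library or batch I of H&H 35 epithelium. MYB, which acts in blood progenitors and in other dividing cells, measured 2.12 and 2.99 RPKM at H&H 31 and 10.5 and 11.7 RPKM at H&H 35 in epithelium, against 0.759 and 0.923 RPKM in H&H 35 mesenchyme. MYB, like KLF1, was highest in H&H 35 epithelium. LMO2 (2.91 and 3.74) and SCL (2.36 and 2.30) were higher in mesenchyme at both stages, while KLF3 was lower (-1.01 and -1.63), as was BCL11A (-2.39 and -1.21), and MYB was lower at H&H 35 (-2.72). The interaction was called for MYB (-2.38), BCL11A (1.18), LMO2 (0.83) and LDB1 (-0.76) among others.

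Of 6 genes for iron uptake, 0 were called by limma in mesenchyme between the stages and 1 had an unadjusted p under 0.05. Without batch I of H&H 35 mesenchyme 1 was called, and C20H20ORF108 (the table's name for FAM210B, 0.53) and SLC25A38 (-0.26) changed the most. In epithelium TFRC, the transferrin receptor, was higher at 67.4 and 61.5 RPKM against 18.7 and 14.1 RPKM (1.92, limma adjusted p = 1.02e-05), as was C20H20ORF108 (0.57). Of the 6 genes, 1 was higher without any one H&H 31 library or either H&H 35 epithelium library. TFRC was lower in mesenchyme than in epithelium at H&H 35 (-2.30), and its interaction was -2.18. STEAP3 (0.81 at each stage), the ferritin gene FTH (0.81 and 0.67) and, at H&H 31, SLC25A37 (0.62) were higher in mesenchyme, and C20H20ORF108 was lower (-0.53 and -0.57).

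Of 6 haem synthesis enzymes, 3 were lower in H&H 35 mesenchyme (21.6% of all genes were), among them CPOX (-0.32, limma adjusted p = 0.0414) and ALAS1 (-0.30, limma adjusted p = 0.0301). Their number was 1 without either H&H 31 epithelium library, and none was called without either H&H 31 mesenchyme library or batch II of H&H 35 mesenchyme. In epithelium only CPOX of the 6 was called (-0.66), with 1 more, higher, without batch II of H&H 35 epithelium. Such enzymes are made in many cells, and all 6 were at least 1 RPKM in every library. FECH (0.72 and 0.78) and UROS (0.79 and 0.72) were higher in mesenchyme at both stages and CPOX lower (-0.79 and -0.46), with UROD lower at H&H 35 (-0.37).

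Of 7 genes for red cell metabolism and the nucleus, BPGM (0.32) and BNIP3L (0.30) were higher and ALOX5 (-1.95) and GPX1 (-0.45) lower in H&H 35 mesenchyme, where 39.8% of all genes were called. None was higher without batch I of either mesenchyme group, and 1 was without either H&H 31 epithelium library or batch II of H&H 35 mesenchyme. Without any one H&H 31 library or batch II of H&H 35 mesenchyme 1 was lower. ALOX5, an enzyme of leukotriene synthesis that blood cells make, went from 6.39 and 6.09 RPKM to 0.607 and 1.20 RPKM. In epithelium CA2, a carbonic anhydrase (1.07), and BNIP3L (0.31) were higher and CAT lower (-0.47). There 1 was higher without either H&H 31 epithelium library or batch II of H&H 35 epithelium, and 2 were lower without either H&H 35 mesenchyme library. H1F0 (2.76 and 3.14) and CAT (0.85 and 1.47) were higher in mesenchyme at both stages, as was ALOX5 (2.40 and 0.78), while CA2 (-2.17 and -2.60) and GPX1 (-0.65 and -1.28) were lower at both. The interaction was called for ALOX5 (-1.62), GPX1 (-0.63) and CAT (0.62).

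**Figure D5:**
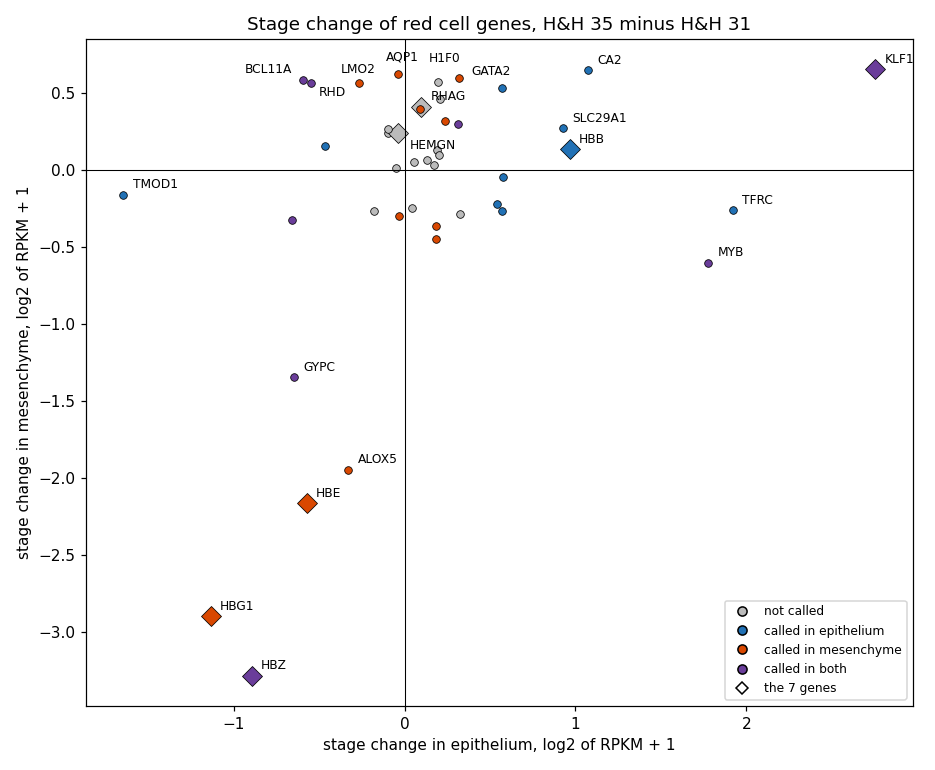
Stage change in epithelium (x axis) against stage change in mesenchyme (y axis), as log2 of RPKM + 1, for the 7 genes (diamonds) and the 37 further red cell genes tested (circles), coloured by where the limma adjusted p was under 0.05. HBE, HBG1 and HBZ lay lowest, below ALOX5 (-1.95) and GYPC (-1.35), and KLF1 lay farthest right, followed by TFRC (1.92) and MYB (1.78).

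Markers of other blood cells were also read. The leukocyte and macrophage list, led by CD74 and LAPTM5, summed to 74.3 to 82.7 RPKM in H&H 31 mesenchyme and 71.8 to 128 RPKM in H&H 35 mesenchyme. Of its 10 genes tested, 1 was higher and 1 lower at H&H 35, while 4 were higher without batch II of H&H 35 mesenchyme and none without either H&H 31 mesenchyme library. The thrombocyte list, led by TUBB1 and FLI1, summed to 23.9 to 26.6 RPKM and 26.6 to 33.5 RPKM, with 2 of 5 genes tested higher, or 1 of 5 without batch I of either mesenchyme group. Of all genes tested, 18.2% were called higher and 21.6% lower between the stages in mesenchyme, and these counts are to be read against those shares. In epithelium the leukocyte list summed to 33.6 to 38.3 RPKM at H&H 31 and 19.9 to 21.0 RPKM at H&H 35. The thrombocyte list summed there to 9.90 to 11.0 RPKM, then 17.6 to 18.1 RPKM. TUBB1 was higher by mean in epithelium than in mesenchyme, at 8.20 against 6.89 RPKM, then 14.6 against 8.57 RPKM. CD3E of the leukocyte list was too, at 14.2 against 5.01 RPKM, then 5.13 against 0.382 RPKM. FLI1, and 8 of the 10 leukocyte genes tested, were higher in mesenchyme at each stage (29.7% and 29.1% of all genes were). The lists therefore did not differ as one between the tissues. The part of leukocytes and thrombocytes in the red cell values was not tested.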

How the data were processed

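The deposited RPKM table holds 1 row per library, all of them matched to a sample (0 unmatched). Per the study's methods, the authors separated epithelium and mesenchyme, prepared libraries from total RNA, trimmed the reads, mapped them to galGal4 and analysed them with Partek software. TopHat2 and Partek are named in the submitters' processing notes without versions, and the gene annotation and the treatment of reads shared by gene copies are not given in the sources used here. The deposited count of alignments per library was read as depth only. The unit was checked by name for 97 gene columns, and RPKM does not give read counts for most genes, so a count test was not used.

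The fit was limma 3.58.1 (R 4.3.3) on log2(RPKM + 1), over all 8 libraries as 4 group means with a variance trend. It covered 11155 genes at 1 RPKM or more in at least 2 libraries and 5 comparisons. A run on simulated data with independent noise and added changes checked the code only, not how well the fit suits these libraries. P-values rest on the spread between replicates of these 8 libraries, taken within the 4 groups and drawn towards the variance trend of all genes tested. Whole reads were sought from the steps of low values. The labels call the replicate number a batch. Deviations of same-numbered libraries correlated at 0.19 (H&H 31 tissues) and 0.32 (H&H 35 tissues) but at -0.18 to 0.04 across stages.

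The members and the lists were chosen with earlier results of these data known. Named besides the members are, per red cell list and comparison, up to 4 called genes with the largest change (2 where none was called), the 2 most abundant genes per marker list, and the 3 genes most like each member. Some genes that this rule names are not reported here. Alternatives changed the pseudocount, filter, scaling, variance trend, block, libraries fitted and each library in turn.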

Additional observations from a re-analysis of the deposited data

Results flagged for a closer look

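For 3 of the 7 genes the stage change in mesenchyme differed from that in epithelium by the interaction test in limma. It called 42.4% of all genes tested, so the count of these genes was near the share of all genes. The difference was -1.59 for HBE, -2.39 for HBZ and -2.10 for KLF1 on the log2(RPKM + 1) scale (limma adjusted p = 0.0208, 0.00164 and 0.000297). With a pseudocount of 0.1 in place of 1 the calls of HBZ (-1.12, limma adjusted p = 0.277) and HBE (-0.92, limma adjusted p = 0.496) were lost. As ratios of group means without an added constant, HBZ was 12.3-fold lower in epithelium, or 4.02-fold without batch I of H&H 31 epithelium, and 11.5-fold lower in mesenchyme. HBE was 4.84-fold lower in mesenchyme, while its stages overlapped in epithelium, where the ratio of H&H 35 to H&H 31 was 0.224 and became 1.07 without that library. KLF1 was 46.8-fold higher in epithelium (36.6-fold to 64.8-fold with 1 library left out) and 2.27-fold higher in mesenchyme (1.58-fold to 4.01-fold).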

How the results depend on the processing

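Of 634 values of the 35 gene results under the alternatives, 594 kept their direction and their side of the threshold, 29 lost a call, 7 gained one and 4 changed sign. Left-out libraries turned the sign of 3 stage changes, none of them called: HBE in epithelium (-1.16 to 0.0101, above 0 without batch I of H&H 31), HEMGN in epithelium (-0.13 to 0.0494, above 0 without batch I of H&H 31 or, at 0.00917, batch II of H&H 35) and HBB in mesenchyme (-0.39 to 0.66, below 0 without batch I of H&H 31). The number of the 7 genes called between stages in epithelium was 3, where 34.4% of all genes tested were called. It was 1 with no filter (3785 of 14642 genes called), and it changed with some left-out libraries. For the interaction it was 3 (42.4% of all genes tested), and 1 with a pseudocount of 0.1 (4459 of 11155 genes). The minimum of 5 RPKM left HEMGN and RHAG untested. The stage change of the ratio to HBB was -2.41 for HBE and -3.57 for HBZ with a pseudocount of 0.1. With no pseudocount, an alternative chosen after seeing the data, it was -2.61 for HBE, -3.08 for HBG1 and -4.04 for HBZ.

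With the replicate block, 3 of the 7 genes were called in epithelium, 4 in mesenchyme, 7 between tissues at each stage and 3 in the interaction. Of the 11155 genes tested it called 3810 in epithelium, 4399 in mesenchyme, 6383 and 7387 between tissues, and 4664 in the interaction. No call of a member changed, also with the block set within each stage. Scaling to equal sums moved the median of all genes by 0.10 in the H&H 35 tissue comparison and by 0.14 in the interaction. It took the share of higher calls from 53.9% to 38.7% in epithelium between stages and from 45.8% to 59.3% in the interaction. Calls over all genes went from 3842 to 2476 in epithelium without batch I of H&H 31 epithelium, and from 4435 to 2903 and 2791 in mesenchyme without batch I or batch II of H&H 31 mesenchyme. With 2 libraries a group, each left-out fit assumes that the lone library varies like the other groups. Levels under 1 RPKM can rest on few reads, although RHAG at 0.915 RPKM in H&H 31 mesenchyme (batch I) had at least 70.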
